A study of Mus musculus with 8 samples.

Results

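The duct epithelial genes are 9 genes that mark the epithelium lining pancreatic ducts: the keratins Krt19, Krt7, Krt8 and Krt18, the apical mucin Muc1, the transcription factor Sox9, the chloride and bicarbonate channel Cftr, the RNA-binding protein Bicc1 and the secreted protein precursor Ambp. They were chosen by name, as every probe set that carried 1 of these 9 gene symbols, and they make up 9 of the 17097 genes measured, with 13 probe sets between them. Gene expression had been measured in isolated pancreatic islets of 20-week-old mice on 8 Affymetrix arrays. There were 2 arrays in each of 4 groups: hIAPP transgenic mice given 4-phenylbutyrate (PBA, a chemical chaperone), untreated hIAPP transgenic mice, wild-type mice given PBA, and untreated wild-type mice. The transgene encodes the human form of islet amyloid polypeptide, a beta-cell hormone that can form amyloid, and its name places it under the Ins2 promoter, so it is driven in beta cells and not in duct cells. The labels give FVB/N-Tg(Ins2-IAPP)RFHSoel/J as the strain background of all 8 arrays, wild type included. PBA was given at 1 g/kg/day for 12 weeks from the age of 8 weeks. Nothing in the labels tells separate animals from pooled islets or repeat arrays within a group. Each p-value therefore rests on the spread between these samples alone, which may be technical.

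Pancreatic duct cells form a simple epithelium that carries acinar secretions to the gut and adds bicarbonate-rich fluid through Cftr. Their cytoskeleton is built of keratins that pair a type II chain such as Krt7 or Krt8 with a type I chain such as Krt18 or Krt19, and Sox9 is needed to keep duct and pancreatic progenitor identity. Islets arise from the same embryonic duct epithelium and lie near ducts in the adult gland, so an islet isolation can bring duct cells along. Krt7, Krt8 and Krt18 are also found in other simple epithelial and in endocrine cells, so no member taken alone marks a duct cell in an islet sample.

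Values are log2 intensities of the deposited table. The islet label was borne out by the hormone genes, since Ins2 lay at 14.0 to 14.1 and the glucagon gene Gcg at 12.9 to 13.1 on all 8 arrays. Non-specific control probe sets had a 95th percentile of 4.68, which is used here as the upper edge of background. By that measure 5 members were above background on all 8 arrays (Krt7, Krt8, Krt18, Bicc1 and Ambp), 2 on some of them (Krt19 and Muc1) and 2 on none (Sox9 and Cftr). Intensities of different probe sets are not on a common scale, so no member is ranked against another by level. Hybridisation controls stood apart on PBA-treated wild type 1, with a median of 6.95 against 9.8 to 10.2 on the other arrays, and results that rest on that array or on PBA-treated hIAPP 1 are also given without both. In islet RNA, fewer cells of a type and less RNA per cell cannot be told apart.

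**Figure D1:**
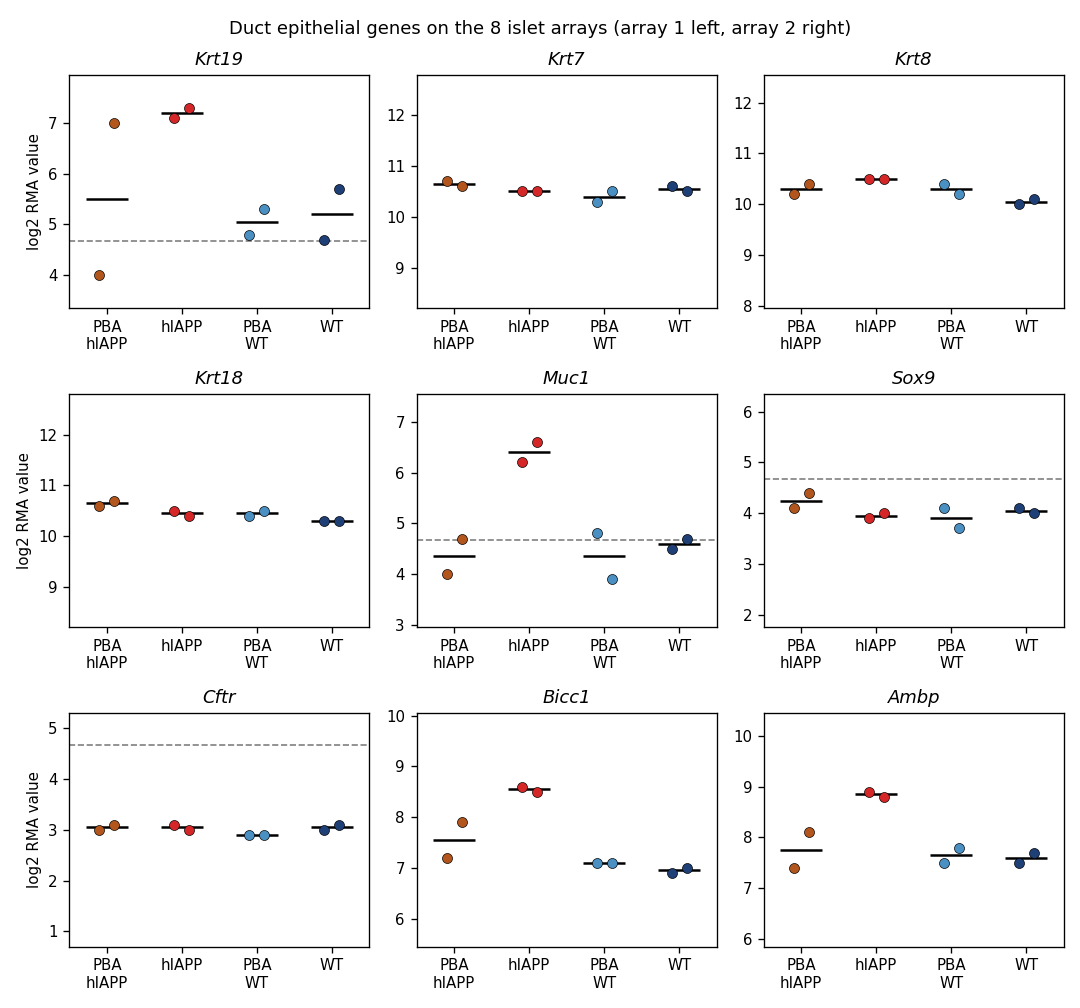
Log2 intensity of the 9 members on each of the 8 arrays, 1 panel per gene, with PBA-treated hIAPP, untreated hIAPP, PBA-treated wild-type and untreated wild-type islets from left to right. Points are arrays, bars are group means, and the dashed line is the 95th percentile of non-specific controls at 4.68, drawn where it falls in the panel. Muc1, Bicc1 and Ambp are highest on both untreated hIAPP arrays, and the points for Krt19 lie far apart in PBA-treated hIAPP islets.

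Muc1, Bicc1 and Ambp were higher in untreated hIAPP islets than in untreated wild-type islets, and lower in PBA-treated than in untreated hIAPP islets. None of the 4 keratins, nor the main probe sets of Sox9 and Cftr, passed the test in either comparison. In untreated hIAPP against untreated wild-type islets, 3 of the 9 members were higher and 0 lower at an adjusted p below 0.05, beside 11.0% of all genes called in either direction, 7.77% called higher and 3.19% called lower. The median log2 change of the 9 members was 0.45, and that of all 17097 genes was -0.05. Between PBA-treated and untreated hIAPP islets, 3 of 9 members were lower and 0 higher, beside 8.09% of all genes called in either direction, 6.32% called lower and 1.78% called higher. There the median of the members was -0.20 and that of all genes 0.00. Without PBA-treated hIAPP 1 and PBA-treated wild type 1, 2 members passed with the transgene (Bicc1 and Ambp) and 0 with PBA in hIAPP islets. Both comparisons use the same 2 untreated hIAPP arrays, so their values are not independent of each other.

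Muc1, a transmembrane mucin of the apical cell surface, had 4.0 and 4.7 in PBA-treated hIAPP islets and 6.2 and 6.6 in untreated hIAPP islets. In wild-type islets it had 4.8 and 3.9 with PBA and 4.5 and 4.7 without. Both untreated hIAPP arrays were clearly above background and above the other 6 arrays, which lay close to the background edge on either side of it. The mean was 6.40 ± 0.28 in untreated hIAPP and 4.60 ± 0.14 in untreated wild-type islets (SD, n = 2 each), a log2 difference of 1.80 (SE 0.33, 95% interval 1.02 to 2.58, limma adjusted p = 0.0149). PBA-treated hIAPP islets averaged 4.35 ± 0.49 (SD, n = 2), which was 2.05 lower than untreated hIAPP islets on the log2 scale (SE 0.33, 95% interval of the change -2.83 to -1.27, adjusted p = 0.0120). Because the low groups sit at background, these differences may understate the true ratio. The call in untreated hIAPP islets was lost when any of the 4 arrays compared was left out (adjusted p 0.1032 to 0.1413). It was also lost without the 2 arrays named above (1.80, adjusted p = 0.0601).

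Bicc1 encodes an RNA-binding protein whose loss gives cysts of kidney tubules and pancreatic ducts in mice. It had 7.2 and 7.9 in PBA-treated hIAPP islets and 8.6 and 8.5 in untreated hIAPP islets. PBA-treated wild-type islets had 7.1 and 7.1 and untreated wild-type islets 6.9 and 7.0. Both untreated hIAPP arrays were above both PBA-treated hIAPP arrays, which in turn were above all wild-type arrays. The last step was small, 7.2 against 7.1 at its closest, in values rounded to 1 decimal. The share of all genes with such an order was not counted. The transgene difference without PBA was 1.60 (SE 0.21, 95% interval 1.11 to 2.09, limma adjusted p = 0.0036), or 3.03-fold, and it narrowly missed the threshold when any of the 4 arrays compared was left out (highest adjusted p 0.0660). With PBA, Bicc1 fell by 1.0 in hIAPP islets (95% interval of the change -1.49 to -0.51, adjusted p = 0.0293). PBA-treated hIAPP islets, at 7.55 ± 0.49, and PBA-treated wild-type islets, at 7.10 ± 0.00 (SD, n = 2 each), differed by 0.45, and this difference missed the threshold (95% interval -0.04 to 0.94, adjusted p = 0.4489).

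Ambp encodes the common precursor of alpha-1-microglobulin and of bikunin, the light chain of the inter-alpha-trypsin inhibitors, and is known best from the liver. It had 7.4 and 8.1 in PBA-treated hIAPP islets, 8.9 and 8.8 in untreated hIAPP islets, 7.5 and 7.8 in PBA-treated wild-type islets, and 7.5 and 7.7 in untreated wild-type islets. Its highest values again came from both untreated hIAPP arrays, and the PBA-treated hIAPP arrays lay on either side of the wild-type ones. The transgene difference without PBA was 1.25 (SE 0.23, 95% interval 0.72 to 1.78, limma adjusted p = 0.0136), or 2.38-fold. Leaving out any of the 6 untreated or wild-type arrays ended the call (adjusted p 0.0549 to 0.1337). PBA-treated hIAPP islets were lower than untreated ones by a change of -1.10 (95% interval -1.63 to -0.57, adjusted p = 0.0286). Between PBA-treated hIAPP and PBA-treated wild-type islets the difference was 0.10 (95% interval -0.43 to 0.63, adjusted p = 0.8817).

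The falls with PBA in hIAPP islets rest on few arrays. Without PBA-treated hIAPP 1 the change was -1.70 for Muc1 (adjusted p = 0.1211), -0.65 for Bicc1 (0.0635) and -0.75 for Ambp (0.1168), and none of the 3 passed. Without PBA-treated hIAPP 2 the changes were -2.40 (0.0560), -1.35 (0.0181) and -1.45 (0.0299), in the same order of genes. Across all 8 ways of leaving out 1 array the direction was negative in each. The change ran from -2.40 to -1.70 for Muc1, -1.35 to -0.65 for Bicc1 and -1.45 to -0.75 for Ambp. These are not 8 separate checks, since leaving out either array of a wild-type group gives the same fit for this comparison. With the level of acinar genes as a covariate, the changes were -1.25 (0.3562), -0.70 (0.4912) and -0.97 (0.4109), and 8 genes of all 17097 passed, against 1384 without it. That level was itself lower on both PBA-treated hIAPP arrays than on both untreated ones, so this fit cannot separate it from PBA.

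**Figure D2:**
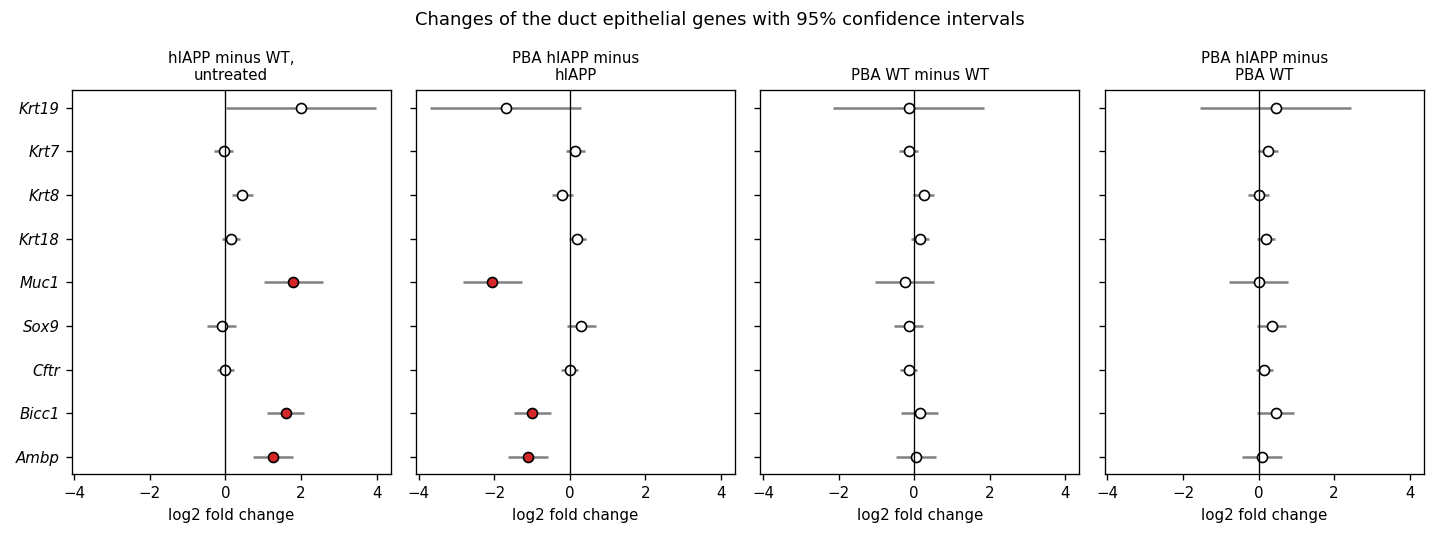
Log2 change of each member in the 4 comparisons of groups, 1 panel each, with the subtraction given in its title. Points are estimates of the limma fit and whiskers are 95% intervals, and red points passed an adjusted p of 0.05. Red points appear for Muc1, Bicc1 and Ambp with the transgene and, with the opposite sign, with PBA in hIAPP islets, and for no member in the other comparisons.

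No keratin passed the test on its main probe set, and whether keratins differ from the 3 genes above was not tested. Krt19, the type I keratin used most often to identify duct cells, had 4.0 and 7.0 in PBA-treated hIAPP islets, against 7.1 and 7.3 in untreated hIAPP islets. Wild-type islets had 4.8 and 5.3 with PBA and 4.7 and 5.7 without. Both untreated hIAPP arrays were above all others, while 1 PBA-treated hIAPP array lay next to them and the other was the lowest of all 8. The transgene difference without PBA was as large as 2.0 and yet missed the threshold (SE 0.85, 95% interval 0.01 to 3.99, limma adjusted p = 0.1980), with an SD of 2.12 between the PBA-treated hIAPP arrays in the shared error. Leaving out either PBA-treated hIAPP array gives the same fit for this comparison, since the array left adds nothing to the shared error. The difference was again 2.0 and was called there, so the call depends on the spread between the PBA-treated hIAPP arrays. The difference did not pass in the fit of the 2 groups alone (adjusted p = 0.1143). That fit equals the one without PBA-treated hIAPP 1 and PBA-treated wild type 1 for this comparison. With 1 array left out at a time the difference ran from 1.5 to 2.5. The PBA change in hIAPP islets was -1.70 (95% interval -3.69 to 0.29, adjusted p = 0.2834). Leaving out PBA-treated hIAPP 1 gave -0.20 (adjusted p = 0.8629), and leaving out its partner gave -3.20 (0.0390), so the size depends on which array is kept.

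Krt7 and Krt8 are type II keratins and Krt18 is the type I partner of Krt8. All 3 were well above background, and their groups lay close together. Krt7 ranged from 10.3 to 10.7 over the 8 arrays, with a transgene difference of -0.05 (95% interval -0.31 to 0.21, limma adjusted p = 0.8358). Krt18 had 10.6 and 10.7 in PBA-treated hIAPP islets, 10.5 and 10.4 in untreated hIAPP islets, 10.4 and 10.5 in PBA-treated wild-type islets and 10.3 on both untreated wild-type arrays. Its transgene difference was 0.15 (95% interval -0.08 to 0.38, adjusted p = 0.4079) and its PBA change in hIAPP islets 0.20 (95% interval -0.03 to 0.43, adjusted p = 0.2834). For both genes the ends of these intervals lay within 0.43 of 0.

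Krt8 was measured by 2 probe sets. The main one had 10.2 and 10.4 in PBA-treated hIAPP islets, 10.5 and 10.5 in untreated hIAPP islets, 10.4 and 10.2 in PBA-treated wild-type islets, and 10.0 and 10.1 in untreated wild-type islets. The other had 10.0 and 10.2, 10.5 and 10.5, 10.0 and 9.9, and 9.8 and 10.0 in the same groups. On both probe sets the untreated hIAPP arrays were the highest. The main probe set gave a transgene difference of 0.45 that lay just outside the threshold (95% interval 0.17 to 0.73, limma adjusted p = 0.0547). In a fit of all 45037 probe sets, of which 6.26% were called, the other probe set passed at 0.60 (SE 0.13, adjusted p = 0.0323) and the main one did not (adjusted p = 0.0877). With PBA in hIAPP islets the changes were -0.20 (95% interval -0.48 to 0.08, adjusted p = 0.3728) and -0.40 (adjusted p = 0.1365), and neither passed.

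Krt8 and Krt18 neighbour each other on mouse chromosome 15, with 0 protein-coding genes between them in the RefSeq annotation, and Krt7 lies 23 protein-coding genes away. The windows around the transcription start of this pair are shown with those of Muc1 and Ambp, because the keratin pair passed no test on the main probe sets while Muc1 and Ambp did. They are RefSeq sequences of GRCm38.p6 and run from 250 bases before the start to 50 bases from it, read along the strand of the gene. A window was found for 6 of the 9 members. Capitals mark matches on either strand to TATAAA (the TATA box), GGGCGG (the GC box bound by Sp1), CAGGTG (an E-box), AGGTCA (a nuclear receptor motif) or ATCGAT (a core bound by Onecut factors).
Muc1, chr3:89228806-89229105, plus strand: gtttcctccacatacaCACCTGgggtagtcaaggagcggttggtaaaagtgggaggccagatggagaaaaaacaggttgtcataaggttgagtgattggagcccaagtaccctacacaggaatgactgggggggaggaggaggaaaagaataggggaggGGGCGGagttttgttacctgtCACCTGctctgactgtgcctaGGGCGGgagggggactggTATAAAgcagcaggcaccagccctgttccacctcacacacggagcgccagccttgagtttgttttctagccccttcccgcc
Ambp, chr4:63154123-63154422, minus strand: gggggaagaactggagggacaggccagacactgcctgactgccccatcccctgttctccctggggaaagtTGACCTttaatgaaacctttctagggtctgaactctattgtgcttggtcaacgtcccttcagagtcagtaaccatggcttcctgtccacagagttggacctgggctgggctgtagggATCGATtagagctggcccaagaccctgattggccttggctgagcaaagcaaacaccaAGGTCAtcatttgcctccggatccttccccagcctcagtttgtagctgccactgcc
Krt8, chr15:102004293-102004592, minus strand: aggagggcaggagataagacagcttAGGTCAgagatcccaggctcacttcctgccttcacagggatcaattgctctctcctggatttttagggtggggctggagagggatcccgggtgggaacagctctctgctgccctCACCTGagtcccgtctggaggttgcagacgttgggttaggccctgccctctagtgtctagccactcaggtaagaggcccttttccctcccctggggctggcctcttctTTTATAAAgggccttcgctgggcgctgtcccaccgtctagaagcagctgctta
Krt18, chr15:102027966-102028265, plus strand: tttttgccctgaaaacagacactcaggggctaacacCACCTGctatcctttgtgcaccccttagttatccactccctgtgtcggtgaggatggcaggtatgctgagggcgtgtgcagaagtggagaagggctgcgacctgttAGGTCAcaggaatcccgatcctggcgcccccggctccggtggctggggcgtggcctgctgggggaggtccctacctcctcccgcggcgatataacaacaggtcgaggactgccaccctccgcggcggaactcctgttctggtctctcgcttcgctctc

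The Muc1 window holds TATAAA with its first base at position -31 from the start, a place usual for a TATA box, and GGGCGG at -91 and -49. It also holds CAGGTG on the reverse strand at -234 and -70. The Ambp window holds ATCGAT, a palindrome, at -63, and AGGTCA at -6 and, on the reverse strand, at -180. In the Krt8 window TATAAA lies at -1 and, overlapping it on the reverse strand, at -3, with AGGTCA at -225 and CAGGTG on the reverse strand at -111. The Krt18 window holds AGGTCA at -108 and CAGGTG on the reverse strand at -214. Of the 32851 windows in the table, 13.6% hold TATAAA, 35.7% GGGCGG, 20.2% CAGGTG, 16.3% AGGTCA and 0.925% ATCGAT. The GC content was 55.7% for Muc1, 55.0% for Ambp, 58.0% for Krt8 and 61.3% for Krt18, against 66.3% for Krt7 and 71.3% for Cftr. AACAAT, the core bound by Sox factors, is in 10.7% of windows and in none of the 6 found for members, which says nothing of whether such factors bind elsewhere.

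Sox9 and Cftr, the members with the closest tie to duct identity and duct secretion, stayed at background. The main Sox9 probe set had 4.1 and 4.4 in PBA-treated hIAPP islets, 3.9 and 4.0 in untreated hIAPP islets, 4.1 and 3.7 in PBA-treated wild-type islets and 4.1 and 4.0 in untreated wild-type islets. Of the other Sox9 probe sets, 1 had 4.1 and 4.2, 4.3 and 4.6, 3.7 and 3.8, and 3.7 and 3.8 in these groups, and the other 3.7 and 4.2, 4.4 and 4.3, 3.6 and 4.0, and 3.9 and 3.8. On both of these the untreated hIAPP arrays were the highest, and on the main one they were not. In the fit of all probe sets the difference between untreated hIAPP and untreated wild-type islets passed for 1 of the 3 (adjusted p = 0.0217), but all 24 values of the 3 probe sets lay below 4.68, so no fold is given. Cftr ranged from 2.9 to 3.1 on the main probe set and from 2.8 to 3.1 on its other one. Its change was not detectable at these intensities.

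**Figure D3:**
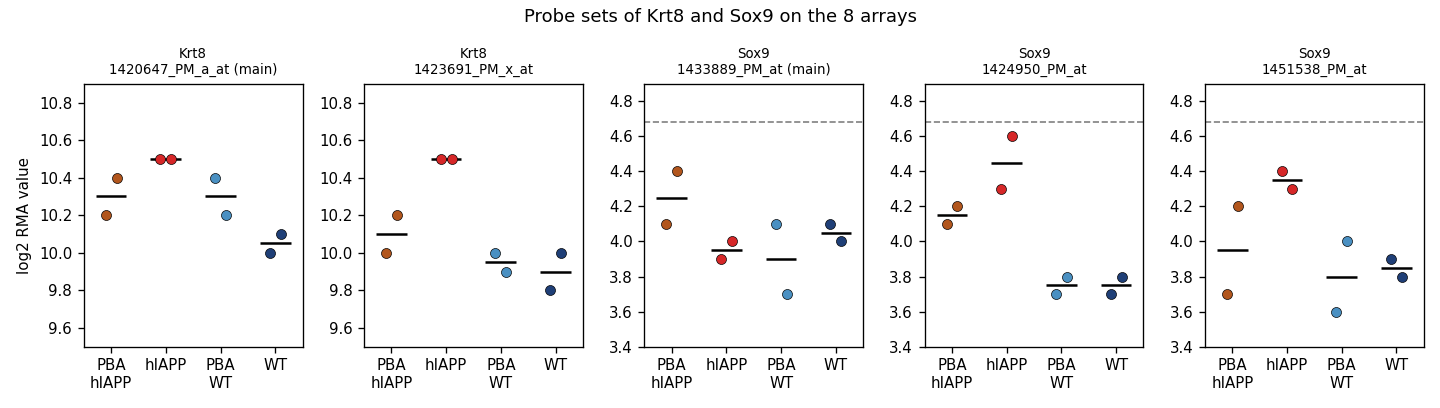
Log2 intensity of the 2 probe sets of Krt8 and the 3 of Sox9 on each array, 1 panel per probe set, in the order PBA-treated hIAPP, untreated hIAPP, PBA-treated wild-type and untreated wild-type islets. Points are arrays, bars are group means, and the dashed line is the background edge at 4.68, drawn where it falls in the panel. Both Krt8 probe sets are highest in untreated hIAPP islets, and every Sox9 point lies below the line.

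In wild-type islets PBA changed none of the 9 members at the threshold, beside 0.292% of all genes called, 0.146% in each direction. The log2 changes of the members ran from -0.25 for Muc1 (95% interval -1.03 to 0.53) to 0.25 for Krt8 (limma adjusted p = 0.5167), with a median of -0.15. Between PBA-treated hIAPP and PBA-treated wild-type islets, 0 of 9 members passed, beside 0.421% of all genes called, 0.322% higher and 0.0994% lower. The median difference was 0.20, and the 95% interval for Krt19 ran from -1.54 to 2.44 and that for Muc1 from -0.78 to 0.78, so these arrays cannot show that the 2 groups are alike. The interaction asks directly whether the PBA change differed between genotypes. It passed for 0 of 9 members, beside 1.96% of all genes called, 0.269% with a positive and 1.69% with a negative value. Muc1 had the interaction of greatest size, at -1.80 (95% interval -2.91 to -0.69, adjusted p = 0.1154), and Bicc1 and Ambp had -1.15 each (0.1102 and 0.1343).

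The 3 genes with the most similar profile to each called member were found by the root mean square difference of centred log2 values over the 8 arrays. The search left out predicted genes, small RNA genes, pseudogenes and genes with only a clone or locus name. For Muc1 they were Adgrg6, an adhesion receptor (0.20), Ahnak, a large scaffold protein (0.21), and Klf10, a zinc finger factor induced by TGF-beta (0.25). For Bicc1 they were Fxyd3, a regulator of the sodium pump (0.14), Adamts5, a matrix protease (0.15), and Pros1, an anticoagulant cofactor (0.16). For Ambp they were Slc5a1, a sodium and glucose cotransporter, B4galnt2, a glycosyltransferase, and Gbp10, an interferon-induced GTPase (0.12 each). Slc5a1 and B4galnt2 were above background on the untreated hIAPP arrays only. Adamts5 was below background on all wild-type arrays and on PBA-treated hIAPP 1. The likeness of these genes thus rests in part on values below background. Among the members themselves, Bicc1 and Ambp were each other's closest profile (0.20), and the closest member to Muc1 was Bicc1 (0.48).

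Wider duct epithelial biology was read from 7 lists of 127 measured genes. With the transgene in untreated islets, 21 of the 127 were higher and 2 lower, 18.1% in all beside 11.0% of all genes. With PBA in hIAPP islets 21 were lower and 0 higher, 16.5% beside 8.09% of all genes. Without PBA-treated hIAPP 1 and PBA-treated wild type 1, a count added after the values were seen, 12 were higher and 0 lower with the transgene, 9.45% beside 2.83% of all genes, and 0 passed with PBA in hIAPP islets, as for all genes. Of 21 other duct surface and progenitor markers, 9 (42.9%) were higher with the transgene (median 0.30) and 8 (38.1%) lower with PBA in hIAPP islets (median -0.35). Of 18 keratins and filament partners, 0 were higher or lower with the transgene (median 0.05), and 1 was lower with PBA (median -0.02). That gene was Krt23, whose 8 values all lay below background. Of these 18 genes 7, Krt23 among them, were above background on no array, so the count says little of them. The list leaves out the 4 keratins among the members.

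Among surface and progenitor markers the hyaluronan receptor Cd44 had 7.7 and 7.8 in PBA-treated hIAPP islets, 9.1 and 9.0 in untreated hIAPP islets, 7.2 and 7.0 in PBA-treated wild-type islets, and 7.5 and 7.3 in untreated wild-type islets. It was higher by 1.65 with the transgene (limma adjusted p = 5.1e-04) and fell by 1.30 with PBA in hIAPP islets (0.0021). The calcium-binding protein gene S100a6 had a transgene difference of 1.95 (5.7e-04) and a PBA change of -1.15 (0.0059). For the copper-binding ferroxidase gene Cp the values were 1.80 (6.1e-04) and -1.90 (0.0014). Tm4sf1, a tetraspan membrane protein, had 1.05 (9.8e-04) and -1.0 (0.0022), and the membrane-binding protein gene Anxa2 had 1.30 (0.0028) and -1.20 (0.0057). These genes are not duct specific, and stromal and immune cells express several of them.

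Of 19 duct and progenitor transcription factors, 4 were higher and 1 lower with the transgene (26.3% in all, median 0.15), and 5 (26.3%) were lower with PBA in hIAPP islets (median -0.20). The 4 were Yap1, Wwtr1, Tead2 and Id1, and no other factor of the list was called higher. In which cells these 4 were expressed was not tested. The one lower with the transgene was Foxa3, an endoderm factor (-0.50, limma adjusted p = 0.0350). Yap1, the transcriptional coactivator restrained by Hippo signalling, had 5.5 and 5.9 in PBA-treated hIAPP islets, 7.1 and 6.9 in untreated hIAPP islets, 5.4 and 5.6 in PBA-treated wild-type islets, and 5.6 and 5.5 in untreated wild-type islets. Both untreated hIAPP arrays stood above the rest, with a transgene difference of 1.45 (limma adjusted p = 0.0019) and a PBA change in hIAPP islets of -1.30 (0.0045). Its paralog Wwtr1 had 1.25 (0.0017) and -0.95 (0.0073), and their DNA-binding partner Tead2 had 0.75 (0.0121) and -0.55 (0.0489). Id1, an inhibitor of helix-loop-helix factors, had 0.60 (0.0124) and -1.05 (0.0025). Sox4, a factor of endocrine progenitors, had -0.25 with the transgene, short of the threshold (0.2476), and was lower with PBA by -0.85 (0.0074). Over all 7 lists the interaction was negative and past the threshold for 5 genes, Wwtr1 (-1.40, adjusted p = 0.0216), Yap1 (-1.25, 0.0437), Id1 (-1.05, 0.0250), Cd44 (-1.0, 0.0395) and Tm4sf1 (-1.0, 0.0220). It was positive for 2, Lcn2, a secreted carrier of siderophores (0.0367, with PBA-treated wild-type islets below background), and Esrp2 (1.25, 0.0310), an epithelial splicing regulator. Without PBA-treated hIAPP 1 and PBA-treated wild type 1, 0 genes of all 17097 passed the interaction (2555 at an unadjusted p under 0.05).

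Of 18 genes of duct ion, bicarbonate and water transport, 3 (16.7%) were higher with the transgene (median 0.20) and 3 lower with PBA in hIAPP islets (median -0.28), beside 11.0% and 8.09% of all genes called. Aqp1, a water channel of duct and endothelial cells, had 5.9 and 7.2 in PBA-treated hIAPP islets, 9.5 and 9.5 in untreated hIAPP islets, 6.5 and 6.2 in PBA-treated wild-type islets, and 7.5 and 7.5 in untreated wild-type islets. It was higher by 2.0 with the transgene (limma adjusted p = 0.0134) and changed by -2.95 with PBA in hIAPP islets (0.0045). The calcium-activated chloride channel gene Ano1 had 1.55 (8.4e-04) and -0.70 (0.0224), and the calcium-activated potassium channel gene Kcnn4 had 1.45 (0.0048) and -1.15 (0.0163). Cftr, the channel they work beside in duct cells, was at background throughout, as given above.

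Among 17 mucins and secreted duct products, 4 (23.5%) were higher with the transgene (median 0.35) and 2 (11.8%) lower with PBA in hIAPP islets (median -0.40). Itih5 encodes a heavy chain of the inter-alpha-trypsin inhibitor family, whose other chains bikunin, the product of Ambp, joins. It had a transgene difference of 2.05 (limma adjusted p = 0.0161) and a PBA change in hIAPP islets of -2.15 (0.0171). No other heavy chain gene of this list was called in either comparison. Pigr, which carries immunoglobulins across epithelium, had 1.30 (0.0036) and -0.75 (0.0385). Wfdc2, a secreted protease inhibitor, had 5.5 and 5.2 in untreated hIAPP islets and 3.6 and 4.2, both below background, in untreated wild-type islets. Its mean in untreated hIAPP islets was 1.59-fold above the background edge, and the measured difference with the transgene passed (adjusted p = 0.0409). The change of Wfdc2 with PBA in hIAPP islets missed the threshold (0.1775). Of 23 junction and adhesion genes, 1 (4.35%) was higher with the transgene, the claudin Cldn3 (0.75, adjusted p = 0.0085), and the same gene was lower with PBA in hIAPP islets (-0.70, 0.0152). Of 11 genes of the primary cilium and polycystic disease, 1 (9.09%) was lower with the transgene, the transport protein gene Ift88 (-0.70, 0.0065). In that list the doublecortin family gene Dcdc2a was lower with PBA in hIAPP islets (-0.95, 0.0340).

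**Figure D4:**
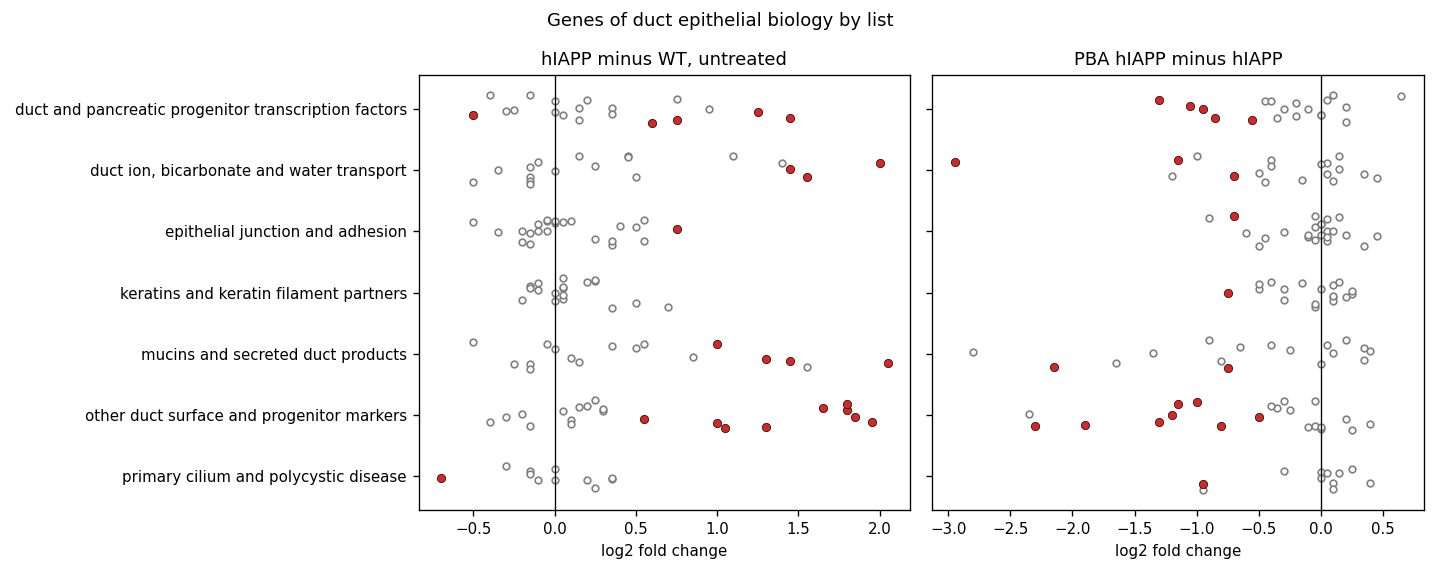
Log2 change of each of the 127 genes of the 7 wider lists, with the transgene in untreated islets and with PBA in hIAPP islets, each list on a line of its own. Each point is a gene, filled red where the adjusted p was below 0.05, and points are spread vertically only to keep them apart. Red points are most frequent among surface and progenitor markers, 9 with the transgene and 8 with PBA. The list of keratins and filament partners, which leaves out the member keratins, lies mostly near 0.

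Markers of other cell types moved in the same comparisons. The median of 21 stellate and connective tissue genes was 7.20 and 7.60 in PBA-treated hIAPP islets, 9.0 and 8.9 in untreated hIAPP islets, 6.30 and 6.10 in PBA-treated wild-type islets, and 6.80 and 6.20 in untreated wild-type islets. Of these genes 18 were higher with the transgene and 17 lower with PBA in hIAPP islets. Of 17 macrophage genes 15 were higher and 15 lower, and their medians per array were 7.9 and 7.8 in PBA-treated hIAPP islets and 9.0 and 8.9 in untreated hIAPP islets, with 6.3 to 6.9 in the wild-type groups. Of 16 endothelial genes 10 were higher with the transgene and 11 lower with PBA in hIAPP islets. Among 18 beta-cell genes 5 were lower with the transgene and 6 higher with PBA in hIAPP islets. Of all genes, 7.77% were called higher and 3.19% lower with the transgene. With PBA in hIAPP islets 6.32% of all genes were called lower and 1.78% higher. The part of these cell types in the values of the duct epithelial genes was not tested.

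Acinar genes, which mark exocrine tissue carried along with ducts, varied between arrays of a group. The median of 28 acinar genes was 7.90 and 9.60 in PBA-treated hIAPP islets, 10.95 and 12.25 in untreated hIAPP islets, 11.65 and 10.50 in PBA-treated wild-type islets, and 12.05 and 10.40 in untreated wild-type islets. It was lowest on PBA-treated hIAPP 1, where Krt19 and Muc1 also had low values. On that array 8 of the 9 members were lower than on PBA-treated hIAPP 2, with a median gap in size of 0.3, against 3 in untreated hIAPP, 4 in PBA-treated wild-type and 6 in untreated wild-type islets that were lower on array 1 than on array 2. Between the arrays of a group the acinar median differed by 1.70 in PBA-treated hIAPP, 1.30 in untreated hIAPP, 1.15 in PBA-treated wild-type and 1.65 in untreated wild-type islets. Muc1 differed by 0.7, 0.4, 0.9 and 0.2 in the same groups, always in the same direction as the acinar median except in untreated wild-type islets. Krt19 differed by 3.0, 0.2, 0.5 and 1.0, in the direction of the acinar median only in the hIAPP groups. Bicc1 differed by 0.7, 0.1, 0.0 and 0.1, and Ambp by 0.7, 0.1, 0.3 and 0.2, both in that direction only in PBA-treated hIAPP islets. With the transgene 1 acinar gene of 28 was higher (3.57%, beside 7.77% of all genes). With PBA in hIAPP islets 3 were lower (10.7%, beside 6.32% of all genes), around a median change of -2.25. The acinar median was lower on both PBA-treated hIAPP arrays than on both untreated hIAPP arrays. The covariate given above therefore cannot separate acinar level from PBA in hIAPP islets. The part of acinar tissue in the PBA changes was not tested.

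Mesothelial cells, which cover the pancreas and share keratins and Muc1 with ducts, were read from 12 genes. Their median was 3.75 and 3.70 in PBA-treated hIAPP islets, 4.55 and 5.05 in untreated hIAPP islets, 3.65 and 4.00 in PBA-treated wild-type islets, and 3.90 and 4.15 in untreated wild-type islets. On the untreated hIAPP arrays 6 and 8 of the 12 were above background, against 3 on each of the other arrays. Msln, which encodes mesothelin, had 6.1 and 6.4 in PBA-treated hIAPP islets, 4.7 and 5.7 in untreated hIAPP islets, 6.9 and 6.9 in PBA-treated wild-type islets, and 5.5 and 5.6 in untreated wild-type islets. Upk3b had 3.3 and 3.5, 4.8 and 6.4, 3.7 and 3.6, and 3.6 and 4.2 in these groups. Nkain4 had 5.6 and 5.3 in untreated hIAPP islets and at most 4.1 on the other arrays, and Aldh1a2 had 5.2 and 5.9 there and at most 4.5 elsewhere, so both, like Upk3b and Muc1, were highest on both untreated hIAPP arrays. Lrrn4, Bnc1, Muc16 and Wt1 were below background on all 8 arrays. With the transgene 2 of the 12 were higher and with PBA in hIAPP islets 3 were lower. The part of mesothelial cells in the values of Muc1 and the keratins was not tested.

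**Figure D5:**
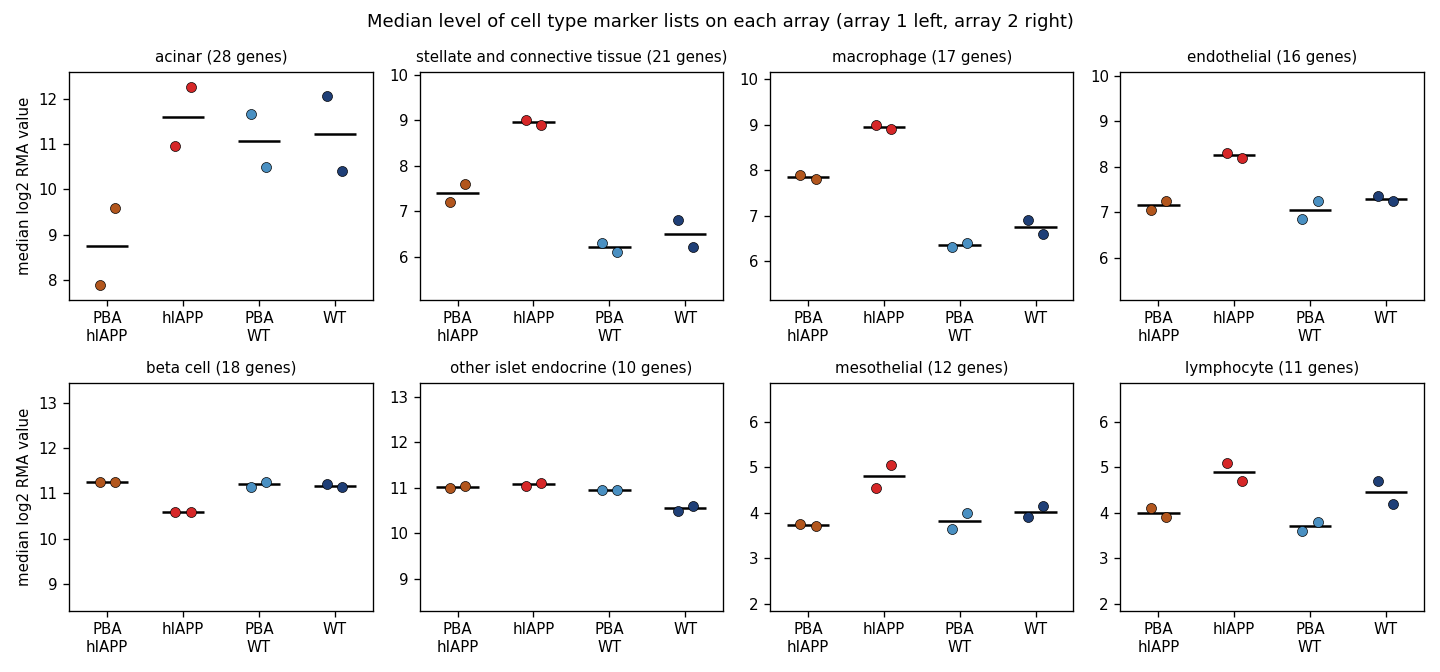
Median log2 intensity of 8 lists of cell type markers on each array, in the order PBA-treated hIAPP, untreated hIAPP, PBA-treated wild-type and untreated wild-type islets. Each point is the median over the genes of a list on 1 array, and bars are group means. Stellate and macrophage medians are highest on both untreated hIAPP arrays, and the acinar median is lowest on PBA-treated hIAPP 1, at 7.90.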

How the data were processed

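The deposited table holds 1 log2 value for each of 45141 probe sets on each of 8 arrays, made by the authors with RMA of the affy package, per the submitters' processing notes, and rounded to 1 decimal. RMA subtracts background, quantile-normalises the arrays and summarises the probes of a set, so a shift shared by all genes is removed. The values were used as deposited. Of the probe sets, 104 were controls, 28898 had 1 gene symbol, 551 several and 15588 none, and symbols were updated by Entrez ID to RefSeq GRCm38.p6 (28689 matched). The probe set with the highest mean over 8 arrays stood for a gene, giving 17097 genes. The number of arrays limits the precision.

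A linear fit of all 8 arrays with 4 group means was made in limma 3.58.1 (R 4.3.3; 4 residual and 3.27 prior degrees of freedom), two-sided, with Benjamini-Hochberg adjustment over all genes of a comparison and a threshold of 0.05. The fit was first tested on simulated data. Tables and plots used Python 3.11.15, pandas 2.3.3 and matplotlib 3.10.9. Named in the text were all 9 members, up to 4 genes of each wider list with the smallest p among those past the threshold for the transgene without PBA and, separately, for PBA in hIAPP islets, and the 3 genes most like each called member. Foxa3 and Esrp2 were named after their values were seen. The members, lists and alternatives were chosen with earlier results of these data known. Alternatives were a fit of the 2 groups compared alone, a replicate block, trend and robust variance, a filter on dim genes, the mean of a gene's probe sets, an acinar covariate, and leaving out arrays. Genes with no value in the table were not used here.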

Additional observations from a re-analysis of the deposited data

Results flagged for a closer look

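For Krt8 and Bicc1, both PBA-treated hIAPP arrays were below both untreated hIAPP arrays, while both PBA-treated wild-type arrays were above both untreated wild-type arrays. For Krt8 this holds on the main probe set only. On its other probe set the wild-type groups overlap, with 10.0 and 9.9 in PBA-treated and 9.8 and 10.0 in untreated islets (change 0.05). The PBA change in hIAPP islets minus that in wild-type islets was -0.45 for Krt8 and -1.15 for Bicc1 on the log2 scale. The interaction was tested with limma and passed for neither gene (adjusted p = 0.2397 for Krt8 and 0.1102 for Bicc1). The change with PBA in wild-type islets was 0.25 for Krt8 and 0.15 for Bicc1 and missed the threshold for both. The share of all genes with such opposite orders of arrays was not counted, so the pattern is not shown to be particular to these members.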

How the results depend on the processing

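With 2 arrays per group the counts of genes past the threshold moved widely. For the transgene without PBA (1874 genes, of which 3 members) a fit of the 2 groups compared alone gave 484 genes and 2 members. Leaving out PBA-treated hIAPP 1 and PBA-treated wild type 1 is the same test here and no second check. The 1 array then left in each PBA group adds nothing to the estimate of spread. For PBA in hIAPP islets (1384 genes, 3 members) the 2 groups alone gave 14 genes and 0 members, the acinar covariate 8 and 0, leaving out both arrays 0 and 0 (3361 genes at an unadjusted p under 0.05), and trend and robust variance 2295 genes. For PBA in wild-type islets (50 genes) the counts were 0 with the 2 groups alone (1802 unadjusted), 5 with the replicate block, 299 with trend and robust variance, 80 with the filter on dim genes and 0 without both arrays (1649 unadjusted). For the transgene under PBA (72 genes) they were 0 with the 2 groups alone (1902 unadjusted), 15 with the block, 348 with trend and robust variance, 5 with the covariate and 1 without both arrays. For the interaction (335 genes, 0 members) they were 118 with the block, 1059 with trend and robust variance, where 4 members passed (Krt8, Muc1, Bicc1 and Ambp), 1 with the covariate and 0 without both arrays (2555 unadjusted). Trend and robust variance, the dim filter and the mean of probe sets each gave 4 members for the transgene without PBA, with Krt8 the added one (adjusted p 0.0014, 0.0333 and 0.0223).

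Leaving out 1 array at a time gave 568 to 1579 genes and 0 to 4 members for the transgene without PBA, 166 to 968 genes and 0 to 3 members for PBA in hIAPP islets, 0 to 2 genes for PBA in wild-type islets, 5 to 13 for the transgene under PBA and 0 to 3 for the interaction. These fits use fewer samples. Krt19 was among the members called with the transgene when either PBA-treated hIAPP array was left out. Arrays of equal replicate number showed no shared deviation over all genes. Over 6 pairs of groups the correlation of the within-group deviations ran from -0.14 to 0.098, and 0 exceeded 0.1. With 1 difference per group, these correlations cannot exclude that equal numbers share a batch. With the replicate block 1486 genes passed for the transgene without PBA and 1027 for PBA in hIAPP islets, with 2 members there, since Bicc1 had -1.0 with an adjusted p of 0.0530. Of 656 alternative values of members, 529 kept sign and side of the threshold, 46 lost the call, 10 gained it and 13 changed sign, 0 of them for a member that had passed. The other 58 belong to 4 differences of 0, with no sign to keep, and none passed: under PBA, Muc1 ran from -0.45 to 0.80 and Krt8 from -0.10 to 0.20, and Cftr from -0.07 to 0.05 with the transgene and from -0.05 to 0.05 with PBA in hIAPP islets. The changes of sign were Krt19 with PBA in wild-type islets (0.10 without both arrays, -0.65 to 0.35 leaving out 1) and under PBA (-1.05 to 1.95), Muc1 (-0.70 to 0.20), Sox9 (-0.35 to 0.05) and Ambp (-0.10 to 0.20) with PBA in wild-type islets, Ambp under PBA (-0.25 to 0.45), and the mean of the Sox9 probe sets (0.37 with the transgene, -0.13 with PBA in hIAPP islets, -0.07 for the interaction). The cause of these moves was not tested. Values near the background edge, those of Muc1, Krt19, Sox9 and Cftr, limit what the arrays can show.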

Other observations

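Lcn2, a secreted iron-siderophore carrier of injured epithelium, did not share the profile of Muc1, Bicc1 and Ambp. It had 6.0 and 6.1 in PBA-treated hIAPP islets, 5.9 and 5.8 in untreated hIAPP islets, 3.4 and 3.9 in PBA-treated wild-type islets and 4.9 and 4.8 in untreated wild-type islets. The hIAPP arrays were above the wild-type arrays with and without PBA, and the PBA-treated wild-type arrays were below background. It was higher with the transgene without PBA by 1.0 (limma adjusted p = 0.0092), and its change with PBA in hIAPP islets was 0.20 (0.5298). The mean of Lcn2 was 2.58-fold above the background edge in PBA-treated hIAPP islets and 1.13-fold above it in untreated wild-type islets. Its measured values were higher with the transgene under PBA (adjusted p = 0.0021) and lower with PBA in wild-type islets (0.0471). Cp was below background in PBA-treated wild-type islets too, at 4.5 on both arrays. Its mean was 2.41-fold above the background edge in untreated wild-type islets and 2.25-fold above it in PBA-treated hIAPP islets. The measured values of Cp were lower with PBA in wild-type islets (0.0197) and higher with the transgene under PBA (0.0199). S100a6 was the other gene of the 7 lists past the threshold under PBA (1.05, adjusted p = 0.0471). Without PBA-treated hIAPP 1 and PBA-treated wild type 1 none of these calls of PBA in wild-type islets or of the transgene under PBA held (adjusted p = 0.3208 for Lcn2 and Cp with PBA in wild-type islets, and 0.3577 for all 3 genes under PBA). The difference of Lcn2 with the transgene without PBA passed there (1.0, adjusted p = 0.0495).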
